A study of Mus musculus with 2 samples.

Results

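The 8 genes described here are Igf2bp1, Igf2bp2, Igf2bp3, Lin28a, Lin28b, Hmga1, Hmga2 and Trim71, a set of fetal growth regulators chosen by name from the 55536 named genes of the series. They were measured in gastrocnemius, the large calf muscle, of female B6CASTF1/J mice at 10 days of age. The series holds 1 group of 2 total RNA libraries, labelled biological replicates 1 and 2 and each prepared from 300 ng of RNA, with ribosomal RNA reduced and ERCC spike-ins added. The animals are F1 hybrids, every library comes from whole tissue, and the labels do not say whether a library came from 1 animal. There is no fetal, newborn or adult muscle in the series, so the data give the level of each gene at this age and not a fall from an earlier one. No test between conditions exists, and differences between the libraries are described without p-values.

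The libraries held 35666448 and 39650328 expected counts over named genes. All 8 skeletal muscle fibre markers were detected, from Acta1, skeletal actin, at a TPM of 24341 ± 2768 (SD, n = 2) to Ryr1, the calcium release channel, at 322 ± 0.679. Bone and marrow markers were higher in replicate 1: the 14 cartilage and bone markers summed to a TPM of 355 in replicate 1 and 25.9 in replicate 2, and Ibsp and Bglap, bone matrix genes, had 1900 and 737 counts in replicate 1 against 0 in replicate 2. Since these are bulk samples, fewer cells of a type and less RNA per cell cannot be told apart.

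The 8 genes form a circuit known from embryos and stem cells. LIN28A and LIN28B bind precursors of the let-7 microRNAs and block their maturation, while mature let-7 represses Lin28a, Lin28b, Hmga2, Trim71 and the Igf2bp genes through sites in their 3′ UTRs. The IGF2BP proteins bind, stabilise and transport messenger RNAs such as that of Igf2. HMGA proteins bend AT-rich DNA, and TRIM71 is an RNA-binding ubiquitin ligase of early embryos. In muscle, Lin28a, Hmga2 and Igf2bp2 are known for their roles in myoblasts and satellite cells, the stem cells of the fibre.

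The mature let-7 sequences are shown because their common seed defines the sites searched for in the members. RefSeq (GRCm38.p6) gives 9 different mature sequences of 22 bases for the family, and all share the seed in bases 2 to 8, written in capitals.
let-7a-5p: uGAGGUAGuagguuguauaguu
let-7b-5p: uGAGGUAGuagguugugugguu
let-7c-5p: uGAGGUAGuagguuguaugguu
let-7d-5p: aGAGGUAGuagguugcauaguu
let-7e-5p: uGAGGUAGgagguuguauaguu
let-7f-5p: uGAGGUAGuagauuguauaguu
let-7g-5p: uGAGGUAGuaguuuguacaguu
let-7i-5p: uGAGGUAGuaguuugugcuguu
miR-98-5p: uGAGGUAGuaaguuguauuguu

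Every member held the letters complementary to that seed in its longest annotated 3′ UTR. The 7-base match CTACCTC and the 8-base match CTACCTCA, which contains it, were searched on the transcript strand of GENCODE M21 transcripts. The 8 members held 21 matches, 13 of them of 8 bases, and Hmga1 alone lacked an 8-base match. Over 21037 nuclear protein coding genes with a 3′ UTR, 9.02% held the 7-base match and 3.06% the 8-base match. The members are known let-7 targets, so the matches describe them and were not tested. The match nearest the stop codon of each member is shown, in mm10 coordinates, with the matching bases in capitals.
Igf2bp1, chr11:95961778-95961785, minus strand: ctgtgcgaagtaaaCTACCTCAa
Igf2bp2, chr16:22059473-22059480, minus strand: cacacaaataaaagCTACCTCAg
Igf2bp3, chr6:49086787-49086794, minus strand: gcatttttactcaaCTACCTCAg
Lin28a, chr4:134005189-134005196, minus strand: cacagcctgttgaaCTACCTCAt
Lin28b, chr10:45381022-45381029, minus strand: cccgggcgggaagtCTACCTCAt
Hmga1, chr17:27563292-27563298, plus strand: cctctgttcacaaaCTACCTCtg
Hmga2, chr10:120364224-120364231, minus strand: ccgacattcaatttCTACCTCAg
Trim71, chr9:114512472-114512479, minus strand: acattgcctaagtcCTACCTCAg

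The number of matches differed between members. Hmga2, Lin28b, Igf2bp1 and Trim71 held 4 matches each, Lin28a held 2, and Hmga1, Igf2bp2 and Igf2bp3 held 1 each. The members with 4 matches were the 4 with the lowest mean TPM, and those with 1 match were the 3 with the highest. Longer UTRs hold more matches, however, and the members with 4 had 3′ UTRs of 3014 to 6337 bases against 1183 to 2119 bases for those with 1. Per kilobase the order was no longer that of the levels: Hmga2 had 1.33 matches, Lin28b 0.90, Hmga1 0.85, Trim71 0.73, Lin28a 0.72, Igf2bp1 0.63, Igf2bp2 0.56 and Igf2bp3 0.47. Among genes with a 3′ UTR of 0.8 to 1.25 times the length of that of Hmga2, 16.1% held any 7-base match. For the length of the Hmga1 3′ UTR the share was 8.23%, and for that of Igf2bp1 34.4%. Fewer genes of like length held 4 or more matches: 0.123% for Hmga2, 0.295% for Lin28b, 0.331% for Igf2bp1 and 0.479% for Trim71. For Lin28a, with 2 matches, the share holding as many was 2.06%. For Igf2bp2 and Igf2bp3, with 1 match, it was 12.1% and 13.3%. Each set of like length includes the member itself and any other member in that range, so these shares count members too. The sets held 605 genes for Igf2bp1 and 835 for Trim71. The members are known targets, so these shares were not tested. Trim71 held its 8-base matches in 2 close pairs, at 166 and 262 and at 3591 and 3617 bases after the stop codon. In Hmga2 and Lin28b the 8-base match lay near the stop codon, 58 and 36 bases after it.

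**Figure D1:**
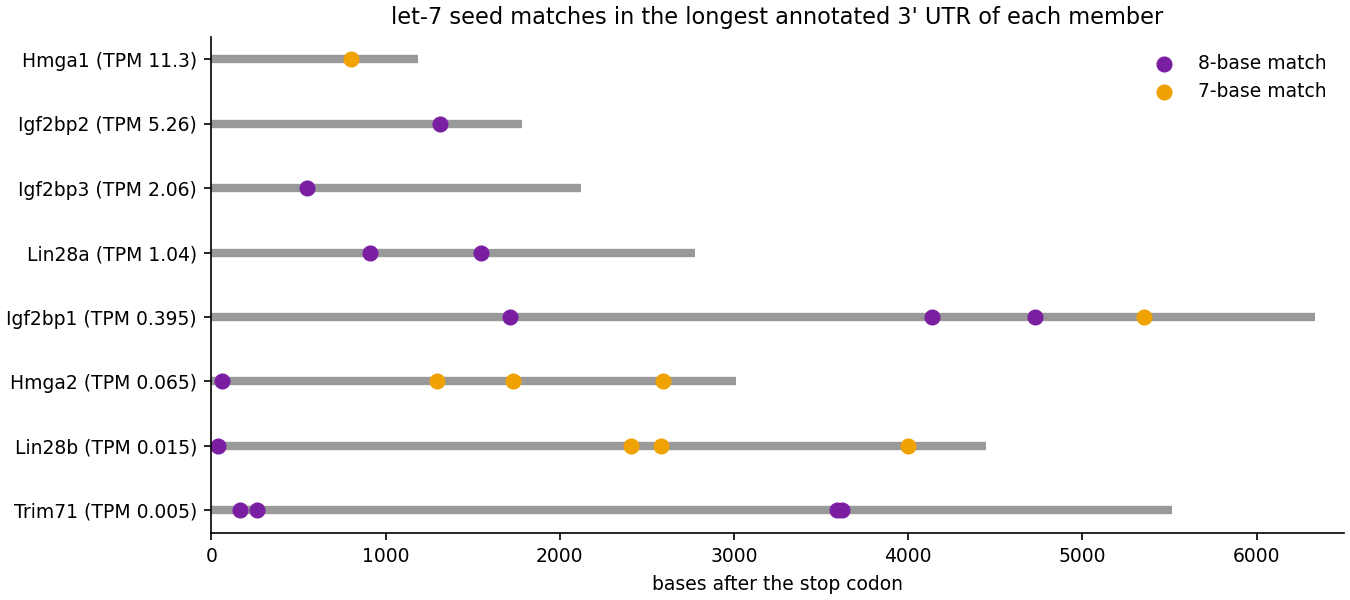
Positions of let-7 seed matches along the longest annotated 3′ UTR of each member, in bases after the stop codon; grey bars are UTR lengths, purple points 8-base and orange points 7-base matches, and members are ordered by mean TPM over the 2 libraries. Hmga1, Igf2bp2 and Igf2bp3, at the top, have 1 match each, and the lowest 4 members have 4 each in longer UTRs.

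Of the 8 members, 3 were detected, meaning a TPM (transcript abundance corrected for length and scaled to a fixed total) of 1 or more in both libraries, against 52.3% of 22015 nuclear protein coding genes. These were Hmga1, Igf2bp2 and Igf2bp3. Lin28a and Igf2bp1 had 20 to 84 counts and TPMs near or under 1, Hmga2 had 10 counts or fewer, and Lin28b and Trim71 had 3 or fewer in each library. Having 3 counts or fewer in both libraries was also true of 29.4% of nuclear protein coding genes. The 8 genes summed to a TPM of 23.2 in replicate 1 and 17 in replicate 2, of which Hmga1 and Igf2bp2 held 83.1% and 81%. The set thus ran from genes above the median of nuclear protein coding genes to genes at the edge of detection.

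**Figure D2:**
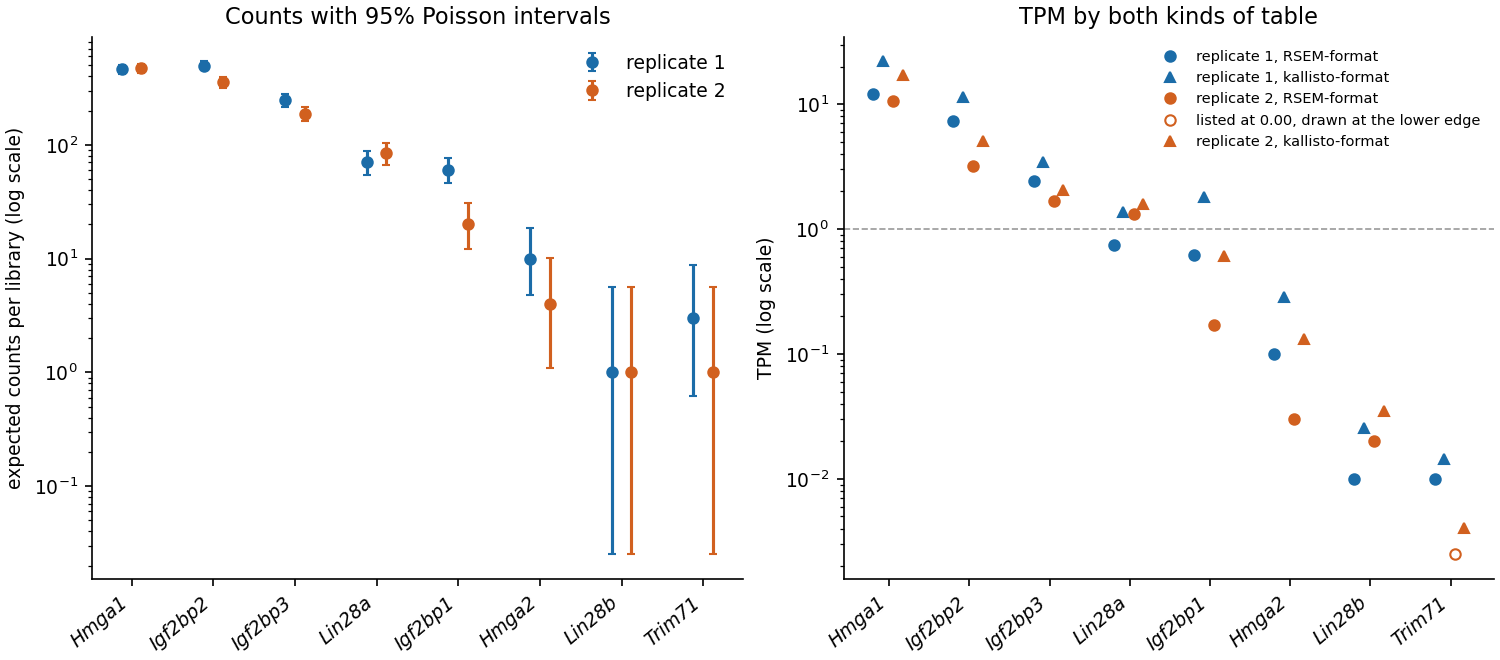
Left, expected counts of each member in each library on a log scale, with exact 95% Poisson intervals that cover counting error only; right, TPM on a log scale from the RSEM-format tables (circles) and the kallisto-format tables (triangles), with a dashed line at TPM 1. Hmga1 and Igf2bp2 have 354 to 495 counts, Lin28b and Trim71 have 1 to 3, and the open circle marks Trim71 in replicate 2, which is listed at 0.00.

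Among the Igf2bp genes, Igf2bp2 was the highest and Igf2bp1 the lowest in both libraries. Igf2bp2 (chromosome 16, 22059009 to 22163299, minus strand), the family member that persists in adult tissues, had 495 counts in replicate 1 and 354 in replicate 2, and TPMs of 7.35 and 3.17. The second TPM lay just under the credibility limits that the deposited table gives for it, 3.27 to 4.76. Its mean TPM of 5.26 ± 2.96 (SD, n = 2) was above that of 64.2% of nuclear protein coding genes. The replicate TPMs differed more than the counts did.

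Igf2bp3 (chromosome 6, 49085223 to 49214957, minus strand), an oncofetal form, had 246 and 187 counts and TPMs of 2.44 and 1.68, above 52.1% of nuclear protein coding genes. Malsu1, a mitochondrial ribosome factor on the opposite strand, overlaps it and had 644 and 846 counts. Igf2bp1 (chromosome 11, 95957163 to 96005940, minus strand), the zipcode-binding protein of embryos, had 60 counts in replicate 1 and 20 in replicate 2, and TPMs of 0.62 and 0.17. The libraries did not overlap between these 3 genes, since the lowest TPM of Igf2bp2 was above the highest of Igf2bp3 and so on down. Igf2bp2 held 66.9% ± 5.27 of the TPM of the 3 genes and 62.4% ± 0.922 of their expected counts (SD, n = 2).

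That gene order was the same in the kallisto-format tables, but the transcripts to which the reads were given differed between the 2 kinds of table. In the RSEM-format transcript tables, the coding form Igf2bp2-201 had a TPM of 1.22 in replicate 1 and 2.24 in replicate 2. The form with a retained intron, Igf2bp2-207, had 303 counts in replicate 1 and 74.6 in replicate 2, and no counts at all in the kallisto-format tables. Retained intron forms together held 63.7% and 29.3% of the Igf2bp2 TPM in the RSEM-format tables. They held 32.7% and 14.4% in the kallisto-format tables, where Igf2bp2-201 had 412 and 423 counts. So the higher gene TPM of Igf2bp2 in replicate 1 came with fewer counts on Igf2bp2-201 in the RSEM-format tables and with nearly equal counts on it in the others.

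For coding forms alone, Igf2bp2 and Igf2bp3 overlapped in the RSEM-format tables. Igf2bp3-201 had TPMs of 1.86 and 1.30, between the 1.22 and 2.24 of Igf2bp2. In the kallisto-format tables the coding forms stayed apart, at 6.61 and 4.34 for Igf2bp2 against 2.72 and 1.70 for Igf2bp3. There a shorter coding form of Igf2bp2, of 3078 bases, had 102 counts in replicate 1 and 0.857 in replicate 2, and it was listed at 0 in the RSEM-format tables.

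The gene TPM of Igf2bp1 came mostly from short noncoding forms that held few reads. Its coding transcript Igf2bp1-201, of 8378 bases, held 90.4% and 89.3% of the gene's counts but 37.8% and 39% of its TPM in the RSEM-format tables. That transcript had TPMs of 0.23 and 0.07. Its processed transcripts of 690 and 576 bases had 3.25 and 2.53 counts in replicate 1, yet 31.7% and 30.6% of the TPM. Another, Igf2bp1-203, took 12.3 and 9.23 counts and 38.5% and 71.1% of the TPM in the kallisto-format tables. The gene-level TPM of Igf2bp1 is therefore above that of its coding messenger RNA in each library and each kind of table.

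**Figure D3:**
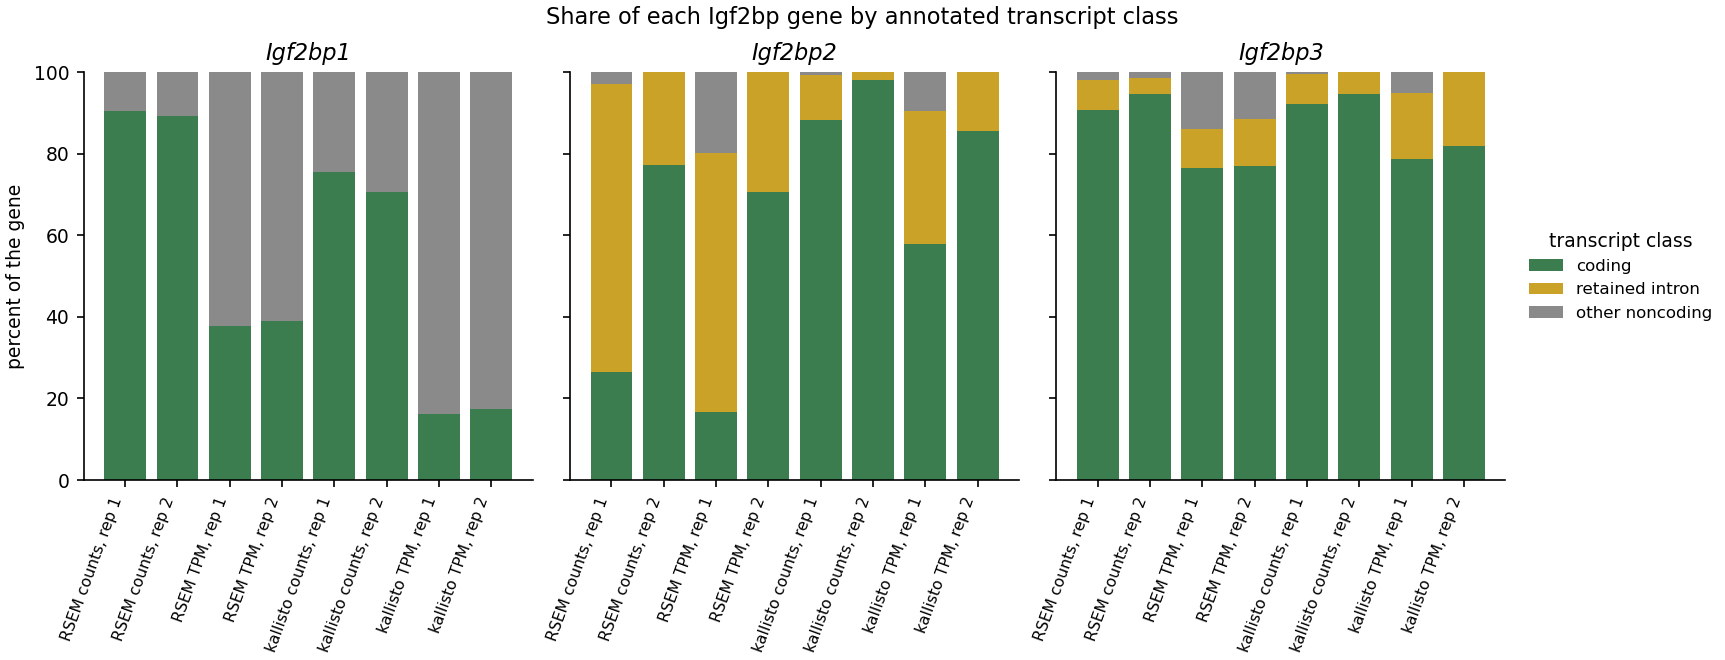
Percent of each Igf2bp gene's counts or TPM held by coding, retained intron and other noncoding transcripts, in each library and each kind of table. Igf2bp3 is mostly coding throughout, the retained intron share of Igf2bp2 counts runs from 1.98% to 70.7%, and noncoding forms of Igf2bp1 hold a larger share of TPM than of counts.

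The let-7 blockers differed from each other. Lin28a (chromosome 4, 134003330 to 134018841, minus strand) was present at a low level, with 70 counts in replicate 1 and 84 in replicate 2. Its exact 95% Poisson intervals were 54.6 to 88.4 and 67 to 104 counts, so the libraries did not differ beyond counting error. Its TPMs were 0.74 and 1.33, and the second was raised by 4.59 counts on a coding form of 394 bases. The main form Lin28a-201 had TPMs of 0.73 and 0.71, which were nearly equal. The mean gene TPM of 1.04 ± 0.417 (SD, n = 2) was above that of 46.4% of nuclear protein coding genes.

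Lin28b (chromosome 10, 45376620 to 45486395, minus strand), the paralog of fetal liver and growth timing, had 1 count in each library. An exact 95% Poisson interval for 1 count runs from 0.0253 to 5.57 counts. The coding form held that count in replicate 1, and a noncoding form held it in replicate 2. In the kallisto-format tables it had 3 and 2 counts. The values of Lin28a and Lin28b did not overlap in either kind of table.

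Trim71 (chromosome 9, 114507133 to 114564369, minus strand), the embryonic let-7 target that itself represses messenger RNAs, had 3 counts in replicate 1 and 1 in replicate 2, on a transcript of 9332 bases. Both kinds of table gave those counts. Its TPMs were 0.01 and 0.00, the lowest mean of the 8 members, and 21.8% of nuclear protein coding genes had a lower mean TPM. At these counts Lin28b and Trim71 could not be told apart from each other, and whether their few reads came from the gene's messenger RNA could not be resolved.

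The Hmga genes stood at opposite ends. Hmga1 (chromosome 17, 27556497 to 27563674, plus strand), which encodes an abundant chromatin protein of dividing cells, had 460 counts in replicate 1 and 469 in replicate 2, and TPMs of 11.95 and 10.61. Its mean TPM of 11.3 ± 0.948 (SD, n = 2) was the highest of the 8 members and above that of 77.2% of nuclear protein coding genes. Hmga2 (chromosome 10, 120361275 to 120476469, minus strand), its fetal paralog and a let-7 target, had 10 and 4 counts and TPMs of 0.10 and 0.03. The 95% Poisson intervals of these counts, 4.8 to 18.4 and 1.09 to 10.2, overlapped. Hmga2 had 22 and 12 counts in the kallisto-format tables, nearly all of them on the coding form Hmga2-201. In the RSEM-format tables Hmga2-201 had 9 counts in replicate 1 and none in replicate 2, where the 3 coding counts went to Hmga2-203. The antisense gene 1700006J14Rik overlaps Hmga2 and had 4 and 0 counts; whether counting used strand is not given in the sources used here. Hmga1 held 99.2% and 99.7% of the TPM of the pair.

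The value of Hmga1 is uncertain because of a gene that shares much of its sequence. Hmga1b (chromosome 11, 120762794 to 120764419, plus strand) is annotated as protein coding and had 304 and 269 counts, with TPMs of 7.05 and 7.33. Across the 17 Hmga1 transcripts, 26.2% to 76% of the 100-base windows occur letter for letter in Hmga1b, with 69.6% for Hmga1-201 and 62.3% for Hmga1-211, so many reads cannot be placed by sequence. The deposited credibility limits of the Hmga1b TPM were wide, 6.07 to 19.5 in replicate 1 and 4.8 to 20.2 in replicate 2. The 2 genes together had TPMs of 19 and 17.9, and 33.3 and 27.3 in the kallisto-format tables. All 17 annotated transcripts of Hmga1 are coding, and the tools divided them differently: Hmga1-201 held 39.8% and 37.5% of the gene in the RSEM-format tables and 0 in the kallisto-format tables, where Hmga1-211 led with 25.4% and 30.2%. How much of the Hmga1 signal comes from either gene was not tested.

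By gene TPM the order was Hmga1, Igf2bp2, Igf2bp3, Lin28a, Igf2bp1, Hmga2, Lin28b and Trim71. No neighbours overlapped between libraries from Hmga1 down to Lin28b, but several gaps were small. The lowest Lin28a TPM, 0.74, stood beside the highest of Igf2bp1, 0.62. Both are from replicate 1, where their deposited credibility limits overlapped, at 0.74 to 1.76 and 0.444 to 1.32. The lowest Hmga2 TPM, 0.03, stood beside the highest of Lin28b, 0.02, which rests on 1 count. In the kallisto-format tables Lin28a, at 1.36 and 1.59, and Igf2bp1, at 1.81 and 0.609, overlapped, and Lin28a became the fourth member past the detection level. With 2 libraries no likeness of pattern with other genes could be measured.

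Igf2bp1 was the member that differed most between the libraries among those with enough reads to compare. Of the 5 members whose mean count reached 10, 1 differed 2-fold or more after TMM scaling, against 7.13% of 16781 genes (6.38% lower and 0.751% higher in replicate 2). With its 60 and 20 counts, Igf2bp1 had a log2 ratio of replicate 2 over replicate 1 of -1.47, with a counting interval of -2.30 to -0.74. Among genes with a mean count of 20 to 80, 18.2% differed as much as 2-fold. Its log2 ratio was -0.96 from kallisto-format counts, short of 2-fold. Igf2bp2 stood at -0.39 and Igf2bp3 at -0.30, both with counting intervals under 0, while Lin28a at 0.35 and Hmga1 at 0.12 had intervals that included 0. All 3 Igf2bp genes were thus lower in replicate 2, as were 47.1% of those 16781 genes. With spike-in scaling all 5 were lower in replicate 2, Lin28a at -0.04 and Hmga1 at -0.27, beside a median of -0.37 over all genes against 0.02 with TMM.

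Markers of some other tissues moved the same way as Igf2bp1. Over the 16781 genes with a mean count of 10 or more, 47.1% were lower in replicate 2 with TMM, and 6.38% by 2-fold or more. Of the cartilage and bone markers 13 of 14 were lower in replicate 2, at a median log2 ratio of -3.91, but Col2a1, the collagen of cartilage, had 1923 and 1750 counts and Sox9, a cartilage regulator, 136 and 114. All 10 blood-forming and granulocyte markers were lower, 9 of them 2-fold or more, at a median of -5.49, or -4.87 with genes at 0 counts set to 3 counts. The granulocyte genes Ngp, Elane and Camp had no counts in replicate 2. The summed TPMs of that list, 700 and 470, were mostly Hbb-bs, a globin of red cells, at 638 and 469. All 5 adipocyte markers were lower, 3 of them 2-fold or more, at a median of -1.31. Their summed TPMs of 158 and 121 were mostly Fabp4, a fatty acid binding protein, at 145 and 116. None of these 3 lists had a member at 0 in both libraries. Of 12 proliferation genes 10 were lower, by a median of -0.21, with summed TPMs of 129 and 95.7. The part of such cells in the Igf2bp1 difference was not tested. Other lists did not all move that way. With TMM, 6 of 6 endothelial markers were higher in replicate 2, at a median of 0.07, and 7 of 10 satellite cell and myoblast markers, at 0.20. Fibroblast, Schwann and nerve, and macrophage markers had medians of -0.05, -0.03 and -0.24. With TMM, 8 of 8 fibre markers were higher in replicate 2 at a median of 0.49, and with spike-in scaling 6 of 8 were, at a median of 0.09, with Ttn at -0.21 and Ryr1 at -0.04. With spike-in scaling all 14 cartilage and bone markers and all 12 proliferation genes were lower in replicate 2. So were all 8 fibroblast, 6 endothelial, 6 macrophage and 7 Schwann and nerve markers, beside a median log2 ratio of -0.37 over all genes. The share of all genes lower with that scaling was not counted.

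**Figure D4:**
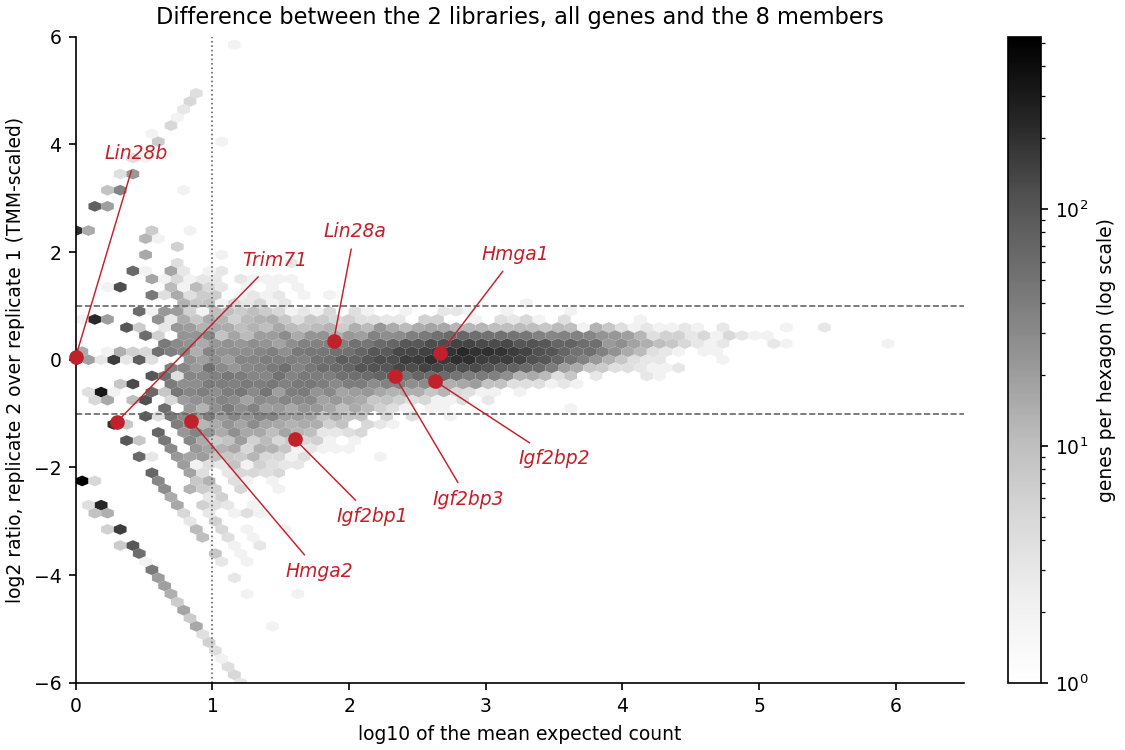
Log2 ratio of replicate 2 over replicate 1 (TMM-scaled) against the log10 of the mean expected count; grey hexagons hold all genes whose mean count reached 1, red points the 8 members, dashed lines mark 2-fold and the dotted line a mean count of 10. The ratio axis stops at -6 and 6, beyond which genes are not drawn. Igf2bp1 lies below the lower dashed line, and Hmga2 and Trim71, also below it, lie left of the dotted line where ratios spread widely.

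The enzymes that act on let-7 precursors together with LIN28 were expressed. Tut7 and Tut4, the uridylyl transferases that tail precursor let-7, had TPMs of 21.3 ± 1.39 and 11.3 ± 1.98 (SD, n = 2). Dis3l2, the exonuclease that degrades the tailed precursor, stood at 7.19 ± 0.396, and Tut1, a related transferase, at 4.65 ± 0.445. All 4 were thus above Lin28a in each library. Of 13 genes of microRNA processing and silencing 12 were detected, beside 52.3% of nuclear protein coding genes. They were led by Ago2, the slicing Argonaute, at 44 ± 4.64, Tnrc6b, a silencing scaffold, at 26.5 ± 5.56 and Tarbp2, a Dicer partner, at 19.6 ± 0.955. Of these 17 genes none differed 2-fold between the libraries, beside 7.13% of all genes whose mean count reached 10. All 17 had over 100 counts in each library, where such differences were rarer, so this does not set them apart. The let-7 microRNAs were not measured: of 12 let-7 and miR-98 hairpin genes in the tables, Mirlet7d had a fraction of a count, 0.34 in replicate 1, and the others had none.

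Of 22 other let-7 targets 19 were detected, beside 52.3% of nuclear protein coding genes. The 7-base match was held by 15 of the 22, beside 9.02% of nuclear protein coding genes with a 3′ UTR of any length. The list was chosen as known targets, so the matches describe it and were not tested. The highest were the collagens Col1a2 and Col3a1, which also mark fibroblasts, at TPMs of 1553 ± 608 and 1447 ± 241, and Cdc34, a ubiquitin-conjugating enzyme, at 127 ± 13.2 (SD, n = 2). None of the 21 that reached a mean count of 10 differed 2-fold, beside 7.13% of all genes. Nr6a1, an embryonic orphan receptor, held the most matches of the list, 8, and had 69 counts in each library.

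Some RNAs known to be bound by IGF2BP proteins were abundant beside the Igf2bp messenger RNAs. Of 14 cargo RNAs and partners 13 were detected, beside 52.3% of nuclear protein coding genes. The exception, Ptgs2, had TPMs of 0.34 and 0.26, below Igf2bp2 and Igf2bp3, and Myc had 10.9 and 9.08. H19 stood at a TPM of 7217 and 6881, and Igf2, the fetal growth factor, at 2933 and 2437, while Igf2bp1, Igf2bp2 and Igf2bp3 summed to 10.4 and 5.02. Actb, the classical zipcode cargo, stood at 778 ± 70.5 (SD, n = 2). Nras, reported as a cargo of IGF2BP2 in myoblasts, stood at 39.5 ± 4.43. These values are levels of different genes on the TPM scale and say nothing of binding.

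Of the imprinted fetal growth genes 14 of 14 were detected, beside 52.3% of nuclear protein coding genes. Their median log2 ratio between libraries was 0.01, and 2 differed 2-fold, beside 7.13% of all genes. Meg3, the maternally expressed noncoding RNA, had TPMs of 1677 and 587, and Rtl1, of the same locus, 6.18 and 1.65. Both were lower in replicate 2, as was Igf2bp1.

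Most markers of the cells in which Lin28a and Trim71 are known to be high were near absent. Of 14 pluripotent and germ cell markers none was detected, and Nanog, Zfp42, Dppa4, Dppa2, Utf1, Tdgf1, Dppa3 and Prdm14 had 0 counts in both libraries. A count of 0 allows up to 3 counts, or 0.0841 and 0.0757 CPM, as a one-sided 95% limit from counting error alone. The highest of the list were Esrrb, which muscle also expresses, at 0.91 ± 0.0707, Sox2, which Schwann cells also express, at 0.225 ± 0.163, and Dnd1, a germ cell factor, at 0.135 ± 0.0354 (SD, n = 2). All 10 satellite cell and myoblast markers were detected, led by Myog, the differentiation factor, at 59.7 ± 0.226, Itga7 at 54.7 ± 2.4 and Mymk, the fusion gene, at 26.6 ± 0.962. All 12 proliferation genes were detected, led by Pcna at 20.9 ± 2.19 and Top2a at 17.3 ± 3.1. Fibroblast, endothelial, macrophage, and Schwann and nerve markers were all detected too, 8 of 8, 6 of 6, 6 of 6 and 7 of 7. Over nuclear protein coding genes the detected share was 52.3%. Which of these cells carry the reads of the members cannot be read from whole-tissue tables.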

How the data were processed

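For each library a gene and a transcript table in RSEM format and a transcript table in kallisto format were used. No source used here names the programs. The build was mm10 with GENCODE M21, per the deposited notes. The deposited expected counts and estimated counts divide reads that match several transcripts by a model, per the file headers. Deposited TPM corrects for effective length. The percent of a gene held by each transcript, and credibility limits of TPM (treated as a score, since their level is not stated), are columns of the deposited tables. Nuclear protein coding genes took 45.5% and 46.4% of RSEM-format TPM and 74.5% and 74.3% of kallisto-format TPM, so the 2 scales differ.

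All 55536 named genes matched GENCODE M21; rows naming no gene held 1.38e-05% and 5e-06% of counts and, like spike-ins (0.72% and 0.798%), were left out. Expected counts were rounded, and ratios are TMM-scaled log2 CPM of replicate 2 over replicate 1 with a prior count of 0.5 (edgeR 4.0.16, R 4.3.3), read where the mean count reached 10. Counting intervals are exact (Poisson, or Clopper-Pearson for a ratio) and cover counting error only. The ratio script was tested on simulated data. Of 8 members, 5 passed the count filter; Hmga2, Lin28b and Trim71 did not. Alternatives were other scalings (DESeq2 1.42.0 size factors, library totals, spike-ins), filters, detection levels, the kallisto-format values and single libraries.

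Genes named are the 8 members, their transcripts with at least 10% of the gene, let-7 genes, the let-7 tailing genes, and of each other list the leading 3 and those at 0; other genes named, such as Nr6a1, Nras, Rtl1, Hmga1b, Ryr1, Ttn, the bone and blood markers and Malsu1, were chosen after their values were seen. The list entries Zcchc11, Zcchc6 and Zac1 are older symbols and were not matched. The members and lists were chosen with earlier results of these data known. Intervals came from scipy 1.17.1 under Python 3.11.15.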

Additional observations from a re-analysis of the deposited data

How the results depend on the processing

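The summed TPM of the 8 members, 20.1 ± 4.39 (SD, n = 2), was 33.5 in the kallisto-format tables and 43.8 when TPM was rescaled over nuclear protein coding genes; with either library left out it ran from 17 to 23.2. The share of Hmga1 in the Hmga pair, 99.4%, was 99% with kallisto-format TPM and 98.5% with expected counts, and 99.2% to 99.7% with either library left out. The share of Igf2bp2 ran from 63.1% to 70.6% with either library left out. The number of detected members was 5 at a TPM of 0.1, when 64.3% of nuclear protein coding genes passed, 4 at 0.5 (56.6%), 2 at 2 (46.4%), 4 with kallisto-format TPM (55%), and 3 to 4 with either library left out. The number of members that differed 2-fold was 1, beside 7.13% of all genes. It was 0 with kallisto-format counts, where 9.13% of genes did. It was 0 of 3 members at a mean count of at least 100, since Igf2bp1 has fewer, and the share of genes there was under 7.13%. With no filter on low counts it was 3 of 8 members, beside 28.1% of genes. There Hmga2 and Trim71 joined on 1 to 10 counts per library. It was 1 of 5 members under the other 5 settings. Under these the share of genes ran from 6.23% with a prior count of 2 to 15.5% at the 1.5-fold limit. The TPM of 7 members, all but Trim71, was higher by more than its SD both in the kallisto-format tables and after the rescaling. Nuclear protein coding genes took 45.5% and 46.4% of RSEM-format TPM, so the rescaling raises all of them and that rise was fixed in advance. Their share of kallisto-format TPM was also larger, 74.5% and 74.3%. For Trim71 the SD, 0.00707, was above the mean, 0.005. No paired analysis was possible because the series has 1 group. Depth limits Hmga2, Lin28b and Trim71, whose values rest on 1 to 10 counts per library.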
